A study of Sus scrofa with 12 samples.

Results

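The myogenic regulators and developmental myosins were followed as 10 genes in the longissimus dorsi muscle of 12 Iberian pigs: the muscle-determining factors MYOD1, MYF5, MYF6 and MYOG, the satellite cell factor PAX7, the MEF2 factors MEF2A, MEF2C and MEF2D, and the embryonic and perinatal myosin heavy chains MYH3 and MYH8. They were taken by gene symbol, not by any measured value, and all 10 of them had a row among the 25880 genes counted and passed the filter on low counts, which 13373 genes passed. The pigs were castrated males of a closed commercial Iberian population, fattened outdoors on acorns and grass, and were chosen at the extremes of the estimated breeding value for muscle myoglobin. The 6 pigs of the High MB group had between 2.376 and 2.559 mg of myoglobin per g of muscle, and the 6 pigs of the Low MB group had between 1.226 and 1.58 mg per g. The labels give no treatment or engineered allele, so the comparison is between animals that differ in breeding value and in whatever else differs with it. Each library came from 1 pig and from a whole piece of muscle, in which fewer cells of a type and less RNA per cell cannot be told apart.

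MYOD1, MYF5, MYF6 (also called MRF4) and MYOG (myogenin) are basic helix-loop-helix proteins that pair with E proteins and bind the E-box, the letters CANNTG, in the control regions of muscle genes. MYF5 and MYOD1 commit cells to the muscle lineage, MYOG drives the fusion and differentiation of myoblasts, and MYF6 is the member of this family that stays most abundant in adult fibres. PAX7 marks the satellite cells, the stem cells that lie against the fibres. The MEF2 proteins bind an AT-rich site, often beside an E-box, and in adult fibres they respond to calcium signals and to the class II histone deacetylases that hold them inactive. MYH3 and MYH8 are the myosins of fetal and newborn muscle, and in adults they are mainly seen in regenerating fibres.

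On Sscrofa11.1, MYF5 and MYF6 are neighbours on chromosome 5, with 7359 bases between them. MEF2D lies at chr4:93581563-93616980 on the plus strand and PAX7 at chr6:77160827-77268626 on the plus strand. MYH8 and MYH3 stand on chromosome 12, on both sides of the adult fast myosins MYH4, MYH1 and MYH2. The 250 bases before the annotated RefSeq start of each gene were read from the genome and searched on both strands for the E-box and for the MEF2 consensus site. The consensus site in full was in the window of MYF6 alone among the 10 genes, and in 2.55% of the 19534 windows of protein-coding genes. With 1 of its outermost bases left free, a form chosen after the strict search had missed a site in MYOG, it was found in the windows of 5 of the 10 genes and in 6.28% of all windows. These 5 stretches show how alike the sites are, with the site in capitals, at chr5:100764788-100764813 (MYF6), chr9:113785411-113785436 (MYOG), chr12:55373390-55373415 (MYH3), chr1:138398118-138398143 (MEF2A), chr2:96296931-96296956 (MEF2C), the last but one on the plus strand and the others on the minus strand:
MYF6: aggagctaCTATATATAAagctgggg
MYOG: ggcgttggCTATATTTATctctggtt
MYH3: tgtcatttCTATATATACctctctct
MEF2A: tgtatggtTTATATTTACaaggtttt
MEF2C: ctttacagCTAAATTTACtccagagt
The whole window of MYF6, the gene with the highest level of the 10 per kb of exon, lies at chr5:100764772-100765021 on the minus strand, and its site ends 25 bases before the start.
MYF6 window: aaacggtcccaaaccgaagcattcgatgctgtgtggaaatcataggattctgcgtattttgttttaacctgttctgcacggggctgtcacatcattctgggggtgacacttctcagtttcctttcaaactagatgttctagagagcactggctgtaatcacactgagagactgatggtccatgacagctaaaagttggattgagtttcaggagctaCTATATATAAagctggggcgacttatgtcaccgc
The window of MYH3, at chr12:55373237-55373486 on the minus strand, holds a site of this kind and, 110 to 115 bases before the start, an E-box, and both are in capitals.
MYH3 window: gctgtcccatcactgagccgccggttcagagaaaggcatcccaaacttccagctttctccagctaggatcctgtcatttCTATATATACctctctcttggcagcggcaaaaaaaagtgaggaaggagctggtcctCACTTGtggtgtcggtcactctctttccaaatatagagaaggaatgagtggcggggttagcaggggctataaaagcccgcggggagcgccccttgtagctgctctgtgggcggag
An E-box of any kind was in 5 of the 10 windows (MYOD1, MYOG, MYH3, MEF2A and MEF2C), against 61.9% of all windows. A match of letters is a description of the window and was not tested as a binding site. The RefSeq models of MYOD1 and MYOG hold coding bases only, so their windows end at the start codon and not at the start of transcription.

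Each pig had from 38914271 to 91318334 gene counts. Of these libraries 5 were deep, with over 50000000 counts (High MB pigs 4 and 6, Low MB pigs 1, 5 and 6), and 7 were standard. In a clustering of the pigs by their whole expression profiles, the smaller branch was made of Low MB pig 4 and High MB pig 2. The log2 fold change of each gene and the correlations are therefore also given without this pair. High MB pig 2 had the highest TMM factor of the 12, 1.214, and the lowest share of counts in its 10 most abundant genes, 14.5% against 17.0% to 24.8% in the others. Its summed level of 7 fibre markers was the lowest of the 12 pigs, at 52620 CPM against medians of 103100 in the High MB group and 105900 in the Low MB group. Its summed level of 6 macrophage markers was the highest, at 108.5 CPM.

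The 10 genes spanned more than 2 orders of magnitude in level per length. MYF6 was the highest, at 122.7 ± 51.9 CPM per kb of exon (SD over 12 pigs), in the 97.2 percentile of the 10517 genes with a RefSeq length. MYOG followed with 75.3 ± 22.2 CPM per kb and was below MYF6 in 11 of the 12 pigs. As the MYOG and MYOD1 models have no untranslated exon, their levels per kb can be overstated and not understated by this. MEF2A stood at 57.5 ± 11.9 CPM per kb, and its order with MYOG changed between pigs, with MYOG above it in 8 of 12. MEF2D (29.1 ± 3.19 CPM per kb) was below MEF2A in all 12 pigs, and MEF2C (21.8 ± 6.63 CPM per kb) was below MEF2D in 11. MEF2C was above MYOD1 in 8 of 12 pigs, with a mean log2 ratio of 0.42 ± 0.78 (SD, n = 12). MYOD1 (17.0 ± 7.63 CPM per kb) and MYH8 (15.9 ± 4.17 CPM per kb) could not be ordered, with a mean log2 ratio of 0.04 ± 0.87 (SD, n = 12) and MYOD1 above MYH8 in only 3 of 12 pigs. MYH3, at 7.82 ± 2.83 CPM per kb, was below MYH8 in every pig. The satellite cell genes closed the order with 0.791 ± 0.320 CPM per kb for MYF5 and 0.699 ± 0.225 CPM per kb for PAX7, and these did not differ beyond their spread (MYF5 above PAX7 in 8 of 12 pigs). Reads were thus assigned to the perinatal and embryonic myosins in all 12 adult muscles, with at least 1834 reads for MYH8 and 934 reads for MYH3 in each pig.

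**Figure D1:**
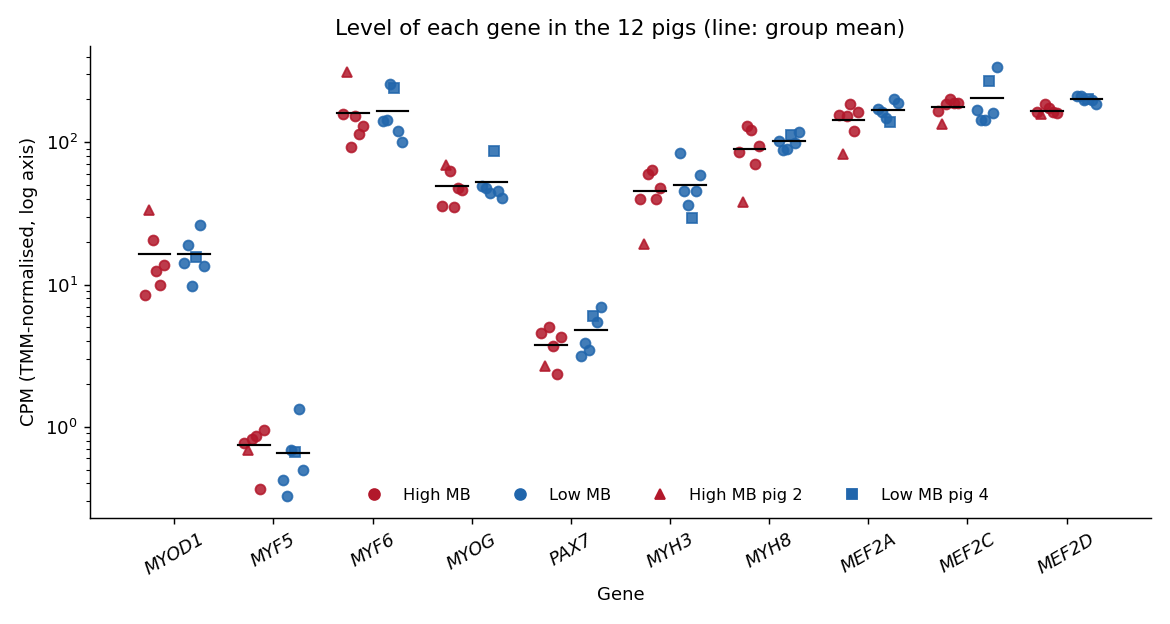
CPM of the 10 genes on a log axis, 1 point per pig, with a line at the group mean. High MB (red) and Low MB (blue) pigs overlapped for 9 of the genes, and for MEF2D all 6 High MB pigs, from 157.4 to 184.8 CPM, lay below the 6 Low MB pigs, from 187.0 to 212.1 CPM.

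Differences between the groups were tested with edgeR's quasi-likelihood test, and a gene was called if its adjusted p was under 0.10 and its log2 fold change was beyond 0.58 in either direction, where a positive value means higher in the High MB group. Group means are given ± SD over n = 6 pigs. None of the 10 genes was called, in a comparison in which 0% of the genes tested were (0 of 13373), and DESeq2 with its defaults also called none of the 10 while calling 29 of 14417 genes (0.201%). At an unadjusted p under 0.05, edgeR gave 1 of the 10, MEF2D, and 8.46% of all genes tested. The log2 fold change was below 0 for 8 of the 10, against 53.1% of all genes, though MYF6 and MYOG turned with library size as the only scaling. The median over the 10 was -0.16.

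MEF2D, a MEF2 factor that class II histone deacetylases hold in check, was the gene in which the groups parted. Its values in the High MB pigs were 163.1, 157.4, 184.8, 173.9, 162.4 and 160.3 CPM for pigs 1 to 6, from between 6338 and 14905 reads. In the Low MB pigs they were 212.1, 209.7, 197.7, 202.0, 199.5 and 187.0 CPM. The groups did not overlap, as every High MB pig was below every Low MB pig, and the closest were pig 3 of the former and pig 6 of the latter. The means were 167.0 ± 10.4 CPM and 201.3 ± 9.07 CPM, a ratio of 0.829. The log2 fold change of MEF2D was -0.27 (standard error 0.086, 95% interval -0.45 to -0.09), with an unadjusted p of 0.00692 and an adjusted p of 0.563 from edgeR and of 0.16 from DESeq2, so that it did not pass the test over all genes. Exact permutation of the pigs (two-sided, on log2 CPM) gave p = 0.00216, the smallest that 6 pigs against 6 allow. Any groups without overlap give this value, so it restates the separation on the same scaling, and it is not adjusted over the 10 genes. Groups without overlap were found for 0.426% of all genes, and with the Low MB group above for 0.194%, and among the 10 genes this was 1 gene. Of the genes tested, 1.05% had an unadjusted p as low as that of MEF2D, and 0.277% also had the same direction. Fitted on the deep libraries alone the difference was -0.22 on the log2 scale, on the standard ones -0.28, and it was -0.23 without Low MB pig 4 and High MB pig 2. The absence of overlap depended on the scaling: with RLE factors 5 of the 6 High MB pigs were below all Low MB pigs, and with library size alone 4 were, while all 6 were with upper quartile factors and with TMM without the 10 genes of highest counts.

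MEF2D also varied least among pigs. Its biological coefficient of variation within groups was 13.6%, in the 1.17 percentile of all genes tested, while that of MEF2A was 22.4% and that of MEF2C 26.4%. Between the lowest and the highest of the 12 pigs MEF2D differed 1.35-fold, MEF2A 2.47-fold and MEF2C 2.50-fold.

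MEF2A and MEF2C, the other MEF2 factors among the 10 genes, had overlapping groups. MEF2A was at 143.3 ± 36.7 CPM in the High MB pigs and 168.5 ± 24.0 CPM in the Low MB pigs, with a log2 fold change of -0.23 (95% interval -0.60 to 0.13) that was -0.14 when High MB pig 2 and Low MB pig 4 were left out. High MB pig 2 had the lowest MEF2A of the 12, 81.98 CPM, against 120.5 to 186.2 CPM in the other pigs of its group. MEF2C was at 176.6 ± 23.8 CPM and 203.5 ± 79.7 CPM, with a log2 fold change of -0.20 (95% interval -0.65 to 0.24). A pair of Low MB pigs, pig 6 with 335.6 CPM and pig 4 with 268.0 CPM, stood above all the other pigs, and the other 4 Low MB pigs, from 144.2 to 168.8 CPM, were lower than 4 of the 6 High MB pigs. With Low MB pig 4 and High MB pig 2 left out, MEF2C had a log2 fold change of -0.02.

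The makeup of the summed counts of MEF2A, MEF2C and MEF2D was free of the library scaling, and MEF2B, which is not among the 10 genes, was left out of it. MEF2D took 34.7% ± 4.04 of this sum (SD, n = 6) in High MB pigs and 35.7% ± 5.44 in the Low MB group (exact permutation test, p = 0.706). MEF2C took 36.3% ± 1.97 and 34.6% ± 8.64 (p = 0.654 from the same exact test), with its highest share, 47.2%, in Low MB pig 6. MEF2A took 29.0% ± 4.43 and 29.7% ± 4.55 (exact p = 0.794). The share of MEF2D was 1 of 3 in which the groups overlapped, and its highest value, 42.2%, was in High MB pig 2, where MEF2A and MEF2C were lowest.

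**Figure D2:**
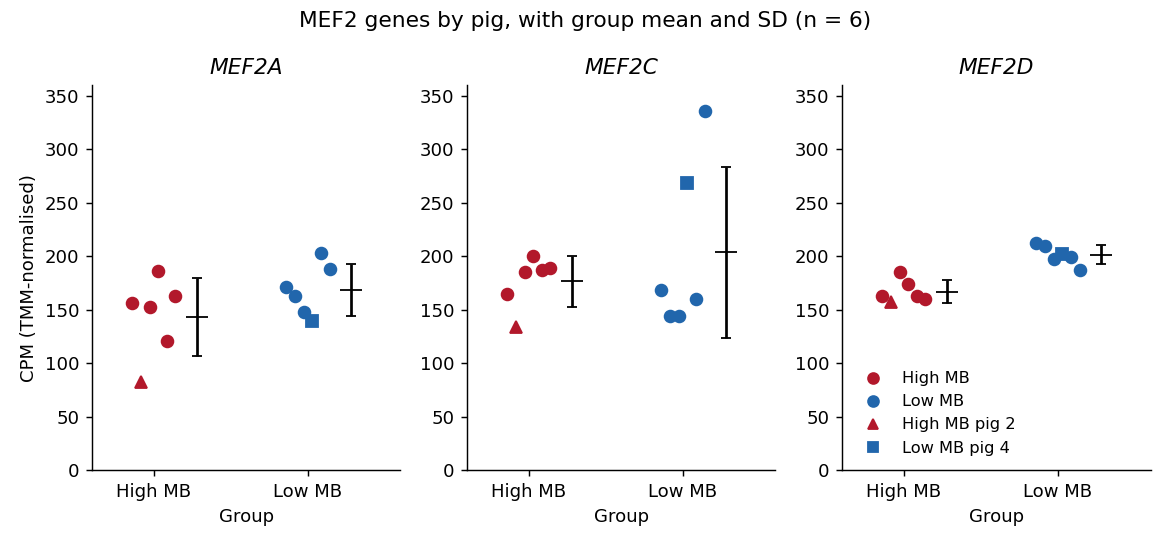
CPM of MEF2A, MEF2C and MEF2D in each pig, with the group mean and SD beside the points (n = 6 per group). For MEF2D the groups are apart and narrow, for MEF2A and MEF2C they overlap, and Low MB pigs 4 and 6 are the high points of MEF2C.

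For the 4 muscle-determining factors the difference between the groups was within the spread of the pigs. MYF6 ranged from 91.83 to 313.0 CPM in the High MB pigs (median 140.4) and from 100.4 to 255.2 CPM in the Low MB pigs. The highest pig was High MB pig 2, which at 313.0 CPM was far from the next of its group, pig 1 with 159.0 CPM. The log2 fold change of MYF6 was -0.06 (95% interval -0.70 to 0.57), and its sign changed with the scaling, since with library size alone the ratio of means was 1.05. Within the deep libraries it was 0.26, within the standard libraries -0.33, and -0.21 with High MB pig 2 and Low MB pig 4 left out.

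MYOG, the differentiation factor, had its lowest values in High MB pigs 4 and 1, at 35.29 and 35.43 CPM, and its highest in Low MB pig 4, at 86.76 CPM. The other 5 Low MB pigs were close together, from 40.76 to 49.30 CPM, while the High MB pigs spread up to 68.98 CPM in pig 2. The group means of MYOG were 49.4 ± 13.9 CPM and 52.2 ± 17.2 CPM, with a log2 fold change of -0.08 (95% interval -0.53 to 0.37) that was 0.03 without High MB pig 2 and Low MB pig 4. With library size alone the ratio of means of MYOG was 1.02.

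MYOD1, the factor of committed myoblasts, was at 16.4 ± 9.26 CPM in the High MB pigs and 16.3 ± 5.70 CPM in the Low MB pigs. High MB pig 2 held the highest value, 33.27 CPM, and High MB pig 1 the lowest, 8.439 CPM, so that the widest spread was inside 1 group. The log2 fold change was 0.01 (95% interval -0.66 to 0.68), and -0.31 without High MB pig 2 and Low MB pig 4.

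MYF5 had from 13 to 89 reads in a pig, the fewest of the 10 genes. It ranged from 0.367 to 0.957 CPM in the High MB pigs and from 0.325 to 1.34 CPM in the Low MB pigs, with Low MB pig 5 at the top and the next of that group at 0.693 CPM. The groups overlapped throughout, with a log2 fold change of 0.18 (95% interval -0.59 to 0.95). Single pigs decided its size, since it was 0.52 without Low MB pig 5 and 0.05 without Low MB pig 2. With High MB pig 2 and Low MB pig 4 left out it was 0.23.

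PAX7, the marker of satellite cells, had the largest difference in size among the 10 genes but did not pass the test. Its values were 4.554, 2.679, 4.988, 3.727, 2.348 and 4.291 CPM in High MB pigs 1 to 6. In Low MB pigs 1 to 6 they were 3.129, 3.876, 3.463, 6.023, 5.474 and 6.957 CPM. Low MB pigs 4, 5 and 6 were above every High MB pig, while the other 3 Low MB pigs lay inside the range of the High MB group. The log2 fold change of PAX7 was -0.36 (standard error 0.24, 95% interval -0.88 to 0.16, adjusted p = 0.69 from edgeR), and the exact permutation test gave p = 0.212. It was -0.33 within the deep libraries, -0.28 within the standard libraries and -0.18 without Low MB pig 4 and High MB pig 2. The list of satellite cell markers, in which PAX7 and MYF5 are 2 of the 14 genes tested, had 7 genes lower and 7 higher in the High MB group and a median log2 fold change of 0.03. Of these, 1 was under an unadjusted p of 0.05, VCAM1, an adhesion molecule also made by other cells, which was higher on average in the High MB group (log2 fold change 0.55).

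The developmental myosins MYH3 and MYH8 were lower on average in the High MB group but overlapped. MYH8 was at 85.29, 38.08, 130.2, 122.6, 69.98 and 93.55 CPM in High MB pigs 1 to 6, and between 88.07 and 117.2 CPM in the 6 Low MB pigs. The High MB pigs were on both sides of the narrow Low MB group, with 2 pigs above all of it and 3 below. MYH8 had a log2 fold change of -0.17 (95% interval -0.66 to 0.31), and it was 0.04 without High MB pig 2 and Low MB pig 4. MYH3 was at 45.1 ± 15.99 CPM in the High MB pigs and 49.9 ± 19.5 CPM in the Low MB pigs, with a log2 fold change of -0.15 (95% interval -0.74 to 0.45), and of -0.08 with High MB pig 2 and Low MB pig 4 left out. The least MYH3, 19.39 CPM, was in High MB pig 2, and Low MB pig 1 had the most of it, 84.17 CPM. Set against muscle actin (ACTA1), the main actin of the fibre, MYH3 and MYH8 together gave 3.32 ± 0.656 counts per 1000 ACTA1 counts (SD, n = 6) in High MB pigs and 3.33 ± 0.735 in the Low MB group (exact permutation test on the log2 scale, p = 0.968).

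The ratio of the perinatal to the embryonic myosin was steadier than either level in the High MB group. There were 1.98 ± 0.157 MYH8 counts per MYH3 count (SD, n = 6), from 1.75 to 2.19, including High MB pig 2 in spite of its low levels. In the Low MB group the ratio was 2.28 ± 0.881 (SD, n = 6), with Low MB pig 1 at 1.22 and Low MB pig 4 at 3.86. The means did not differ beyond this spread (exact permutation test of the log2 ratio, p = 0.60). Myosin genes are close copies of each other, and 1.15% of the 150-base windows of the coding sequence of MYH3 and 2.29% of those of MYH8 occur whole in another of 7 sarcomeric myosin genes, against 34.0% for MYH1 and 29.6% for MYH4. Reads without a unique alignment were left out of the counts, and how many of them came from MYH3 and MYH8 was not measured. Whether reads of other myosins were assigned to MYH3 and MYH8 was not tested. The adult genes MYH1, MYH2, MYH4 and MYH7 had no row under these symbols, and their levels were not analysed here.

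**Figure D3:**
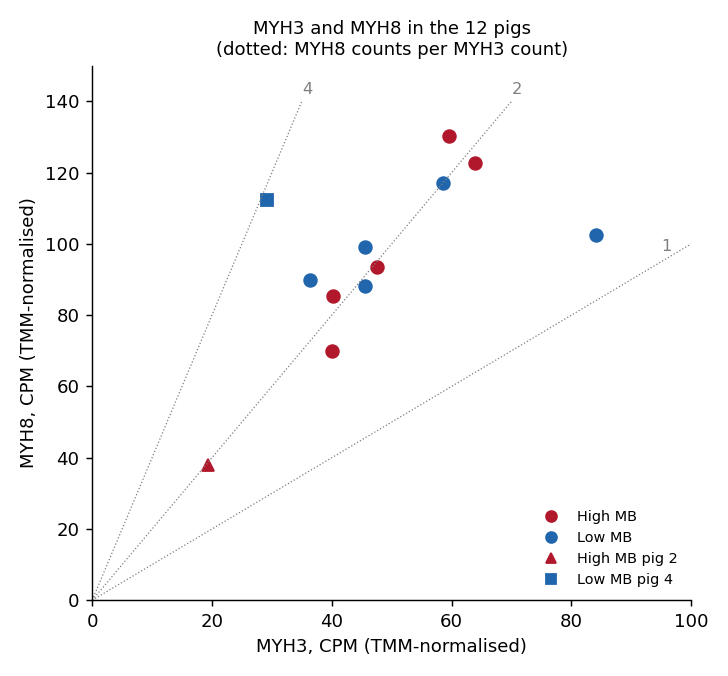
MYH8 against MYH3 in CPM, 1 point per pig, with dotted lines at 1, 2 and 4 MYH8 counts per MYH3 count. The High MB pigs follow the line of 2, and Low MB pigs 1 and 4 lie to both sides of it, at 1.22 and 3.86.

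The intervals of the differences show what the 12 pigs could resolve. For the 9 genes other than MEF2D the 95% interval included 0, and its outer bound was between -0.88 for PAX7 and 0.95 for MYF5. Leaving out 1 pig at a time kept the sign of MYF5, PAX7, MEF2A, MEF2C and MEF2D and turned that of MYOD1, MYF6, MYOG, MYH3 and MYH8 at least once. The size of those that kept their sign still moved, from -0.20 to -0.0037 for MEF2C without Low MB pig 6 and from -0.23 to -0.094 for MEF2A without High MB pig 2. PAX7 ranged from -0.46 to -0.22, the latter without Low MB pig 6. Only MEF2D stayed under an unadjusted p of 0.05 in all 12 of these fits, with log2 fold changes from -0.30 to -0.23.

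**Figure D4:**
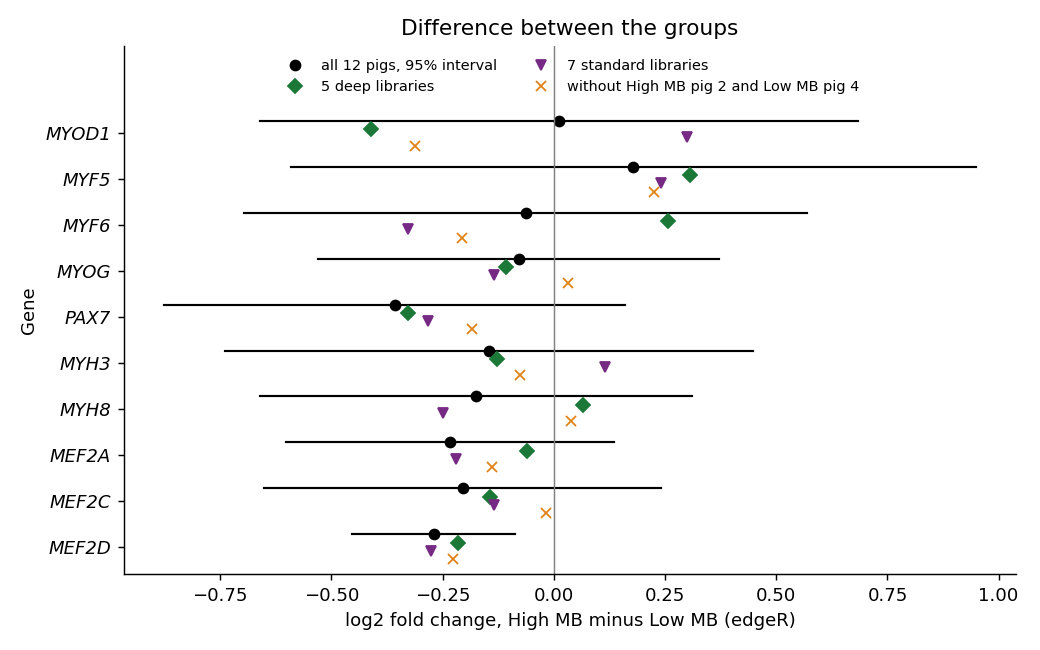
Log2 fold change (High MB minus Low MB) of each gene from edgeR, with the 95% interval over all 12 pigs (black) and the values within the 5 deep libraries, within the 7 standard libraries and without Low MB pig 4 and High MB pig 2. The interval leaves out 0 for MEF2D alone, and the 4 values of MYOD1, MYF6, MYOG, MYH3 and MYH8 fall on both sides of 0.

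High MB pig 2 stood apart in these genes as in the whole transcriptome. It lay more than 1 SD from the mean of the 12 pigs in 9 of the 10 genes, with MYOD1, MYF6 and MYOG above and PAX7, MYH3, MYH8, MEF2A, MEF2C and MEF2D below. Low MB pig 4 did so in 5 genes, with MYF6, MYOG, PAX7 and MEF2C above and MYH3 below. These 2 pigs thus had in common a high MYF6 and MYOG beside a low MYH3, and differed in PAX7 and MEF2C. The other 10 pigs lay more than 1 SD from the mean in between 1 and 4 genes each. The immediate early genes, which respond to stress of cells and to handling, had their highest summed level in Low MB pig 4, 668.1 CPM, and were at 616.0 CPM in High MB pig 2, the third highest. What part the makeup or handling of the samples has in these profiles was not tested.

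**Figure D5:**
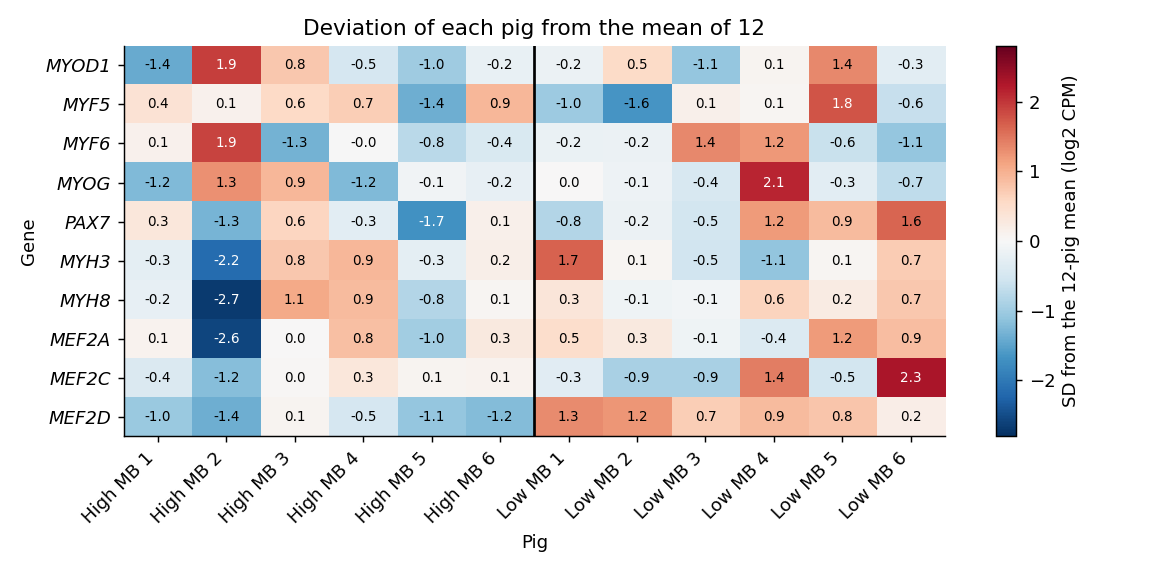
Deviation of each pig (columns) from the mean of the 12 pigs in SD of log2 CPM for each gene (rows), red above and blue below the mean. High MB pig 2 has the strongest colours, in 9 of 10 genes beyond 1 SD, and MEF2D is the row in which the groups part.

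Over the 12 pigs, 45 pairs of the genes were correlated on log2 CPM, and none had an adjusted p under 0.05 for r or for rho. The points share their libraries and scaling factors. The 4 values of r largest in size all involved a developmental myosin. MYH8 and MEF2A had r = 0.844 (permutation p = 0.00452, adjusted 0.0851) and rho = 0.524 (permutation p = 0.0847), but r fell to 0.158 without the 2 pigs farthest from the median of MYH8, High MB pigs 2 and 5, and the relation rests on those pigs. It was 0.63 without High MB pig 2 and Low MB pig 4, 0.931 in the High MB pigs and 0.152 in the Low MB pigs. MYH3 and MEF2A had r = 0.783 (permutation p = 0.00387, adjusted 0.0851) and rho = 0.748 (permutation p = 0.00718), with r = 0.589 without High MB pig 2 and Low MB pig 1, 0.455 without High MB pig 2 and Low MB pig 4, and 0.811 within the standard libraries. It was 0.929 in the High MB and 0.586 in the Low MB pigs. MYH3 and MYH8 had r = 0.742 (permutation p = 0.00856, adjusted 0.0963) and rho = 0.685 (permutation p = 0.0172), with r = 0.505 without the 2 farthest pigs and 0.683 without High MB pig 2 and Low MB pig 4. Their r was 0.985 in the High MB and 0.118 in the Low MB pigs. MYF6 and MYH3 had r = -0.74 (permutation p = 0.00567, adjusted 0.0851) and rho = -0.608 (permutation p = 0.0398), with r = -0.502 without High MB pig 2 and Low MB pig 3 and -0.882 within the standard libraries. The sign for MYF6, the fibre factor, and the embryonic myosin was the same in both groups (r = -0.828 in the High MB and -0.683 in the Low MB pigs), and r was -0.381 without High MB pig 2 and Low MB pig 4. PAX7 and MYH8 had r = 0.651 (permutation p = 0.0155, adjusted 0.14) and rho = 0.58 (permutation p = 0.0509), and this relation changed little, with r = 0.623 without the 2 farthest pigs, 0.602 without High MB pig 2 and Low MB pig 4, 0.719 in the High MB and 0.732 in the Low MB group. MYOD1 and MYOG, in which the first switches on the second in differentiating myoblasts, had r = 0.547 (permutation p = 0.0659, adjusted 0.27) and rho = 0.636 (permutation p = 0.031), with 0.863 in the High MB and 0.079 in the Low MB group and 0.545 with High MB pig 2 and Low MB pig 4 left out. MYF5 and PAX7, both of satellite cells, had r = 0.384 (permutation p = 0.216) and rho = 0.315 (permutation p = 0.318), with r = 0.462 when High MB pig 2 and Low MB pig 4 were left out, 0.8 in the High MB and 0.359 in the Low MB pigs. The 5 deep libraries were too few for a value of their own.

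Among the 11354 tested genes with a symbol, the gene most like each member in its log2 CPM over the 12 pigs had a Pearson r between 0.873 and 0.971. It was PIP4K2B for MYH3 (r = 0.971), EYA1 for MYH8 (0.94), RIPOR2 for MEF2A (0.935), YARS1 for MYOG (0.922), TAPT1 for MYF6 (0.916), DCP2 for MYOD1 (0.901) and ABHD15 for MYF5 (0.901). For MEF2D it was FERRY3 (0.891), for MEF2C RPL7A (0.876) and for PAX7 PTPN21 (0.873). These are the highest of many values over the same 12 libraries, High MB pig 2 included, and for MEF2D the groups form separate clusters.

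The myoglobin content of the muscle, which sets the groups apart, was followed within each group. None of the 20 relations of a gene with myoglobin content had an adjusted p under 0.05, where 6 pigs allow no raw p below 0.00278. The strongest was MYF6 in the Low MB pigs, with r = 0.857 (exact permutation p = 0.0417, adjusted 0.834), rho = 0.657 (exact permutation p = 0.175) and r = 0.933 without the 2 farthest pigs. MEF2D, the gene that parted the groups, had r = 0.186 with myoglobin content in the High MB and 0.134 in the Low MB pigs (exact permutation p = 0.706 and 0.774, and rho = 0.257 and -0.086, exact permutation p = 0.658 and 0.919). Without the 2 farthest pigs of each group these r were -0.471 and 0.769, so that neither was stable. With the breeding value, the lowest exact permutation p of 20 further relations was 0.347 for r (PAX7 in the Low MB pigs, r = -0.466). For rho the lowest exact permutation p was 0.103 (MEF2C in the High MB pigs, rho = -0.771).

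The other genes of the pathway were read from lists of known genes, and none of them was called. The counts below are at an unadjusted p under 0.05, which 5.33% of all genes had with a higher and 3.13% with a lower level in the High MB group. This split depended on the scaling, with 713 of 1132 such genes higher under TMM and 914 of 1115 under upper quartile factors. The list of MEF2 cofactors, repressors and kinases held 20 genes, among them the factor MEF2B itself (9.29 ± 0.836 against 8.81 ± 1.61 CPM, log2 fold change 0.08). Of the 20, 16 were lower on average in the High MB group, against 53.1% of all genes. Of these 16, 3 were under 0.05 (CAMK2D, EP300 and CABIN1), while 2 genes were under 0.05 and higher (HDAC7 and MAPK7). High MB pig 2 had the lowest summed level of this list among the 12 pigs, at 1404 CPM, and the list was not counted again without it. HDAC7, a class II histone deacetylase that represses MEF2, was at 20.1 ± 2.82 CPM in the High MB and 15.3 ± 3.94 CPM in the Low MB group (log2 fold change 0.39, edgeR adjusted p = 0.563). The other 3 class II histone deacetylases of the list were lower on average and not under 0.05, with log2 fold changes of -0.39 for HDAC9, -0.10 for HDAC5 and -0.07 for HDAC4. CAMK2D, a calcium-dependent kinase, was at 85.1 ± 16.7 CPM and 115.0 ± 30.7 CPM (log2 fold change -0.43, edgeR adjusted p = 0.563). The median log2 fold change of this list was -0.14, and that of all genes was -0.02. The 11 MEF2 targets with a row under their symbol had none under 0.05, 9 of them lower on average, with NR4A1 and MYOM1 of lowest p. Both NR4A1 and MYOM1 were lowest in High MB pig 2.

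Of the 12 partners and inhibitors of the muscle-determining factors that were tested, none was under 0.05. The lowest p was that of BHLHE40, a repressor of the E-box, at 95.97 ± 27.9 CPM in the High MB and 146.5 ± 78.7 CPM in the Low MB group, and HEY1, a target of Notch, came next. Of the 10 upstream regulators tested, 1 was under 0.05 in each direction, with MEOX1 higher on average in the High MB group (3.00 ± 0.757 against 1.90 ± 0.461 CPM, log2 fold change 0.66) and EYA4 lower (115.0 ± 25.8 against 159.4 ± 38.4 CPM, log2 fold change -0.47). Of the 16 fusion and differentiation genes tested, 2 were under 0.05 and both were higher. CHRNE, the adult subunit of the acetylcholine receptor, had 12.2 ± 1.61 CPM against 8.63 ± 1.49 CPM (log2 fold change 0.49). TNNI1, the troponin I of slow fibres, had 1408 ± 366.8 CPM against 943.8 ± 202.9 CPM (log2 fold change 0.58). Among the 6 developmental sarcomere isoforms tested, TNNT2, the cardiac troponin T of early muscle, had 1.38 ± 0.79 CPM against 0.481 ± 0.256 CPM (log2 fold change 1.5), and the row named MYH6 had the next lowest p, with a log2 fold change of 0.31 and an edgeR adjusted p of 0.653. That row stood at 5670 ± 1526 CPM against 4571 ± 759.3 CPM, far above MYH3 and MYH8, while MYH7, its close copy, had no row under its symbol. Whether its reads come from MYH6, the cardiac alpha myosin, was not tested. The adjusted p from edgeR was 0.563 for MEOX1, EYA4, CHRNE, TNNI1 and TNNT2.

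Markers of the other cells of muscle were compared beside these genes, and none of them was called. All 7 fibroblast markers and all 6 macrophage markers were higher on average in the High MB group, with 4 of each list under an unadjusted p of 0.05 and median log2 fold changes of 0.67 and 0.95. Their summed levels were 670.0 to 1181 CPM in the High MB and 343.0 to 872.2 CPM in the Low MB pigs for fibroblasts, and 34.2 to 108.5 CPM against 20.8 to 43.4 CPM for macrophages. High MB pig 2 had the highest level of each of the 6 macrophage markers, and the list was not counted again without this pig. For CD14 it had 17.59 CPM, where the group means were 5.42 ± 6.00 CPM (High MB) and 2.85 ± 0.883 CPM (Low MB). All 6 adipocyte markers (375.0 to 691.4 against 357.0 to 607.7 CPM) and all 6 endothelial markers (134.7 to 184.7 against 83.9 to 196.8 CPM) were also higher on average, with 1 of each under 0.05. Of the smooth muscle and pericyte markers 5 of 6 were higher on average (200.5 to 892.0 against 173.9 to 458.4 CPM), and of the Schwann cell markers 3 of 4 (47.8 to 69.4 against 41.1 to 58.1 CPM), with none under 0.05. Both erythroid genes, HBB and ALAS2, were higher on average and under 0.05 (66.4 to 146.0 against 38.3 to 84.2 CPM), with a median log2 fold change of 0.75. The 7 fibre markers, with 6 lower on average and a median log2 fold change of -0.17, summed to between 52620 and 114900 CPM in the High MB and between 90950 and 148200 CPM in the Low MB pigs. Of the 6 immediate early genes 5 were lower on average (177.5 to 631.6 against 177.1 to 668.1 CPM). None of these markers was at 0 in any pig. MB, the gene of myoglobin, had no row under its symbol and was not analysed here. The muscle identity of the samples was plain from ACTA1, at 40410 ± 11550 CPM and 47820 ± 14420 CPM. The part of the other cell types in the MEF2D result was not tested.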

How the data were processed

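RNA-seq counts of longissimus dorsi from 12 pigs, 1 library per pig, were analysed, with pigs assigned to the High MB and Low MB groups by their labels. The authors trimmed paired reads with Trim Galore, used HISAT2 for alignment to Sscrofa11.1 and deposited raw counts per Ensembl gene from htseq-count. Tool versions, annotation release and strand setting were not given in the sources used here, so reads of antisense partners cannot be told apart. The summary lines of htseq-count were left out. Of reads aligned to a single place, 47.0% to 48.2% were assigned to a gene and 50.9% to 52.0% fell on no counted gene. The cause of this share was not tested. The transcript tables were not used, as their identifiers were not paired with genes. Symbols were matched for 14857 of 25880 genes.

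Counts were tested with edgeR 4.0.16 in R 4.3.3 (TMM, filterByExpr, glmQLFit, glmQLFTest, no covariate), with Benjamini-Hochberg adjustment over all 13373 genes tested, and with DESeq2 1.42.0 as an alternative. Both were tested on simulated data. Single genes were compared by exact permutation over the 924 regroupings of 6 and 6, on log2 CPM with a prior count of 2, and correlations with 100000 resamples or all orders of 6 pigs. No libraries of a group were the same within sampling noise, as the chi-square of counts over its degrees of freedom was at least 61.7 between pigs of a group. Positions, exon lengths and windows were taken from RefSeq for the Sscrofa11.1 build, in which MYH3 and MYH8 were found by their product names. Intervals cover the spread between pigs.

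The genes and lists were chosen with earlier results of these data known. Named were all 10 members, the 2 genes of lowest p of each list of pathway genes (not of the cell type marker lists), and the gene most like each member. EP300, CABIN1, MAPK7, HDAC4, HDAC5, HDAC9 and MEF2B, and ACTA1, HBB, ALAS2, VCAM1 and MB as markers, were named after their values were seen. The planned share of developmental myosins among all skeletal myosins could not be formed, as the adult myosins had no symbol, and ACTA1 counts took their place. The labels' individual numbers name different pigs and do not pair them.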

Additional observations from a re-analysis of the deposited data

Results flagged for a closer look

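Of the 20 sets of 6 pigs (10 genes in each of the groups), 3 held a pig farther from the others than Dixon's limit at the 95% level for the gap over the range, where chance gives about 1 in 20 if values are normally distributed. MYF6 in High MB pig 2, at 313.0 CPM with the next pig at 159.0 CPM, had a gap of 0.697 of the range. MYOG in Low MB pig 4, at 86.76 CPM with the next at 49.3 CPM, had a gap of 0.814. MYF5 in Low MB pig 5, at 1.34 CPM with the next at 0.693 CPM, had a gap of 0.637, on the lowest counts of the 10 genes. These gaps are on CPM, and on log2 CPM, a scale tried after seeing the data, 2 sets held such a pig. MYOG in Low MB pig 4 was over the limit on both scales (0.748 on log2 CPM), while MYF6 in High MB pig 2 (0.553) and MYF5 in Low MB pig 5 (0.475) were under it. MYF5 in High MB pig 5, the lowest of its group, was over it on log2 CPM alone (0.645). The pigs with high MYF6 and MYOG are those that formed the smaller branch on all genes.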

How the results depend on the processing

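No alternative called any of the 10 genes. The number of genes called over the whole table was 0, 29 with DESeq2 (lowest adjusted p 0.000123, against 0.563 with edgeR), 1 within the deep libraries and 0 to 0 when 1 pig was left out. MEF2D kept its sign in every fit, with an unadjusted edgeR p of 0.185 in the deep libraries alone and 0.0817 in the standard ones, where the pigs are fewer. The individual number as a replicate block called 0 genes, left 957 under an unadjusted p of 0.05, gave MEF2D -0.27 (edgeR, unadjusted p = 0.0269) and turned MYOD1 to -0.080. These numbers name different pigs, and no pig correlated best with its own number. The sign of the log2 fold change turned with the depth class as a covariate for MYOD1 (-0.0048). Within the deep libraries it turned for MYOD1 (-0.41), MYF6 (0.26) and MYH8 (0.066), and within the standard libraries for MYH3 (0.12). Without High MB pig 2 and Low MB pig 4, a choice made after seeing the data, it turned for MYOD1 (-0.31), MYOG (0.032) and MYH8 (0.039), and the difference in mean log2 CPM of MEF2C became 0.038. The MEF2A share of MEF2 counts differed by 1.38 percentage points within the deep libraries. Leaving out 1 pig moved the log2 fold change between -0.30 and 0.20 for MYOD1, -0.35 and 0.11 for MYF6, -0.18 and 0.14 for MYOG, -0.27 and 0.068 for MYH3, and -0.31 and 0.0023 for MYH8. It moved the difference in mean log2 CPM between -0.32 and 0.077 for MYOD1, -0.31 and 0.046 for MYF6, -0.18 and 0.081 for MYOG, -0.29 and 0.068 for MYH3, and -0.22 and 0.026 for MEF2C. The difference in share of MEF2 counts moved between -2.01 and 0.77 percentage points for MEF2A, 0.341 and 4.21 for MEF2C and -2.92 and -0.069 for MEF2D, the larger ends of the latter pair without Low MB pig 6 and the smaller without Low MB pig 2, and the log2 difference in developmental myosins per ACTA1 between -0.13 and 0.076. The causes were not tested. MYF5 rests on 13 to 89 reads per pig, the fewest of the 10 genes.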
